A study of Mus musculus with 18 samples.

Results

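The NRF2 pathway antioxidant genes described here are 10 of the 22708 genes in the deposited table, chosen by their symbols: Nfe2l2, Keap1, Hmox1, Gclc, Gclm, Gsr, Txnrd1, Txn1, Srxn1 and Prdx1. All 10 were found in the table, and the question put to them is whether targets of NRF2 follow the loss of the aryl hydrocarbon receptor (AHR). RNA was sequenced in bulk from small intestinal eosinophils, sorted by flow cytometry as CD11b+, SiglecF+ and MHC-II- with high side scatter. The 18 samples fall into 3 genotypes of 6 samples each, WT, Ahr-/- and Ahrr-/-, with 3 females (F1 to F3) and 3 males (M1 to M3) in each. All mice carry the strain label C57/BL6, no treatment is given, and the methods put the mice of the study at 6 to 14 weeks of age. Ahr-/- mice carry the deletion in all cells, not in eosinophils alone. According to the methods they were neither littermates of the WT mice nor housed with them, so litter and housing cannot be told apart from genotype. The study counts mice as replicates and gives 6 per genotype for these data, so each WT and each Ahr-/- sample comes from 1 mouse, while the Ahrr-/- mice are not described.

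NRF2, encoded by Nfe2l2, is a transcription factor that KEAP1 binds in the cytoplasm and marks for degradation. When oxidants or electrophiles modify KEAP1, NRF2 escapes, pairs with a small MAF protein and binds antioxidant response elements at genes for glutathione, thioredoxin and haem metabolism. NRF2 activity is set in large part at the protein level, which RNA does not measure. AHR is a transcription factor activated by dietary and microbial ligands that are abundant in the gut, the AHR repressor (encoded by Ahrr) dampens it, and Nqo1 is a known target of both AHR and NRF2.

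The values are the authors' variance-stabilized expression on a log2 scale, called levels below, and a level of 5.02, the lowest in the table, means that no read was counted. The scale is not per gene length, so levels are compared between samples and not between genes, and it shrinks differences at low counts. Turning it back gave the counts, with a total per sample from 3842977 to 8149200 in WT (median 6022410), from 6581818 to 10284124 in Ahr-/- (median 9647590) and from 8788867 to 12046933 in samples labelled Ahrr-/- (median 10371556). Low counts are thus less precise in WT as a group. Normalized counts are these counts divided by the size factor of the sample. Genotypes were compared with limma, with sex in the model, and a gene is said to be called when its p, adjusted over all genes tested, is below 0.05. Differences are on the log2 scale and name the order in which they were taken. The 3 comparisons between genotypes share samples, so their values are set side by side and no relation between them was computed.

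The eosinophil label was checked against 9 marker genes, all of them in the table. Siglecf had a median normalized count of 2114 in WT, 2670 in Ahr-/- and 1709 in samples labelled Ahrr-/-, and Ccr3 had 12557, 12106 and 11324. Alox15 was the most abundant of the 9, with medians of 17260, 24895 and 16388. The granule gene Epx had at most 24 normalized counts in any sample and Ear6 at most 2, so these defining markers were close to absent. Prg2, another granule gene, had medians of 66, 627 and 90. Of the 5 markers tested, Alox15 and Prg2 were called higher in Ahr-/- than in WT, and 4 (Alox15, Il5ra, Prg2 and Siglecf) were called lower in samples labelled Ahrr-/- than in Ahr-/-. The summed normalized counts of the 9 markers were lowest in the sample M3 labelled Ahrr-/-, at 14320, and highest in Ahr-/- F2, at 49551.

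The genes named in the genotypes set the frame. Ahr had a lowest, median and highest level of 13.40, 13.76 and 14.40 in WT and of 14.15, 14.55 and 14.67 in Ahr-/-. The difference, Ahr-/- minus WT, was 0.61 (SE 0.19, adjusted p = 0.0557 from limma), so the transcript was not called and lay above the WT median in 6 of 6 Ahr-/- samples. Its levels in samples labelled Ahrr-/- were 13.03, 13.51 and 14.42. There it was called lower than in Ahr-/-, by 0.82 (SE 0.23, adjusted p = 0.0296 from limma), with 6 of 6 below the Ahr-/- median, and was not called against WT (-0.20, adjusted p = 0.82 from limma). Ahrr, a known target of AHR, had levels of 9.79, 10.12 and 10.39 in WT and of 5.02, 5.25 and 5.79 in Ahr-/-, and the groups did not overlap. In the samples labelled Ahrr-/- it had a lowest level of 9.95, a median of 10.37 and a highest level of 10.93. That is 0.28 above WT (SE 0.18, adjusted p = 0.683 from limma), so the Ahrr transcript was present in the samples labelled Ahrr-/-. Which part of either gene is deleted is not stated, and both genotypes are used as labelled.

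**Figure D1:**
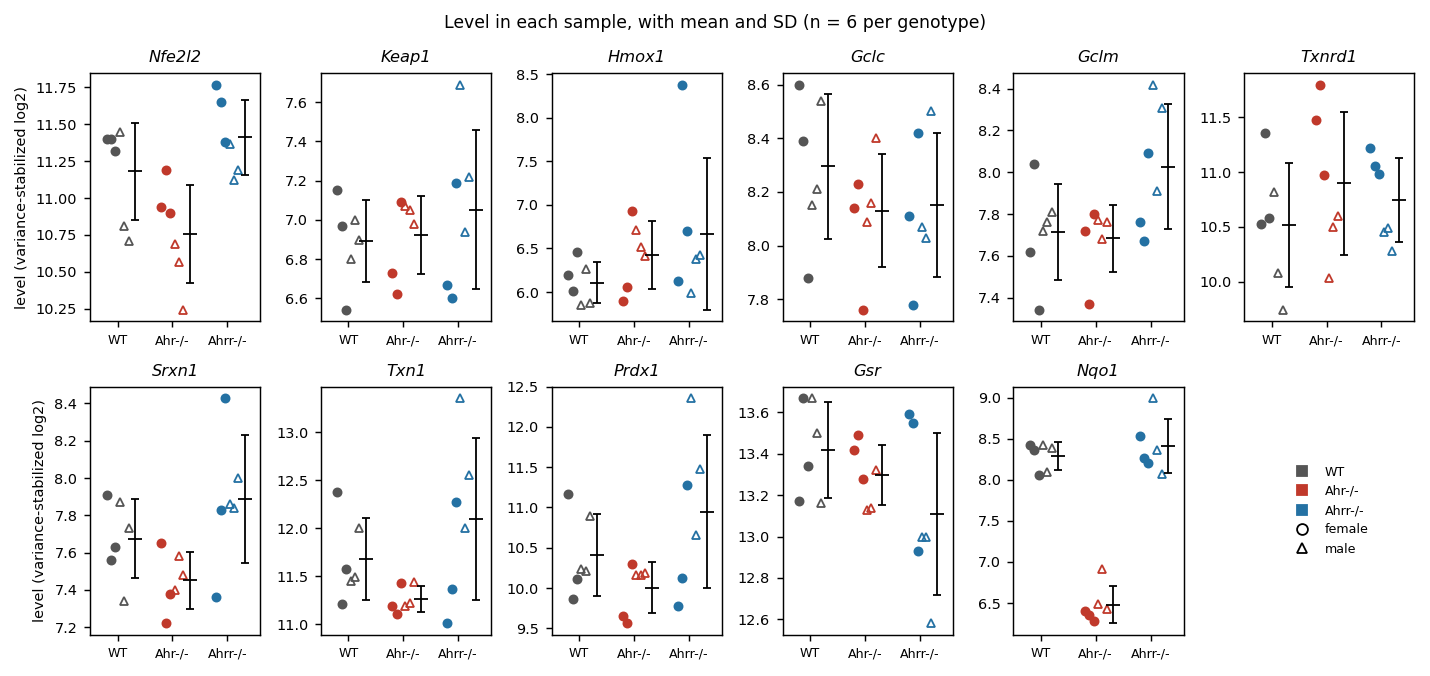
Level of each of the 10 genes and of Nqo1 in every sample (variance-stabilized log2), by genotype, with females as filled circles, males as open triangles and the mean with SD beside them (n = 6 per genotype). Nfe2l2 lies between 10.24 and 11.19 in Ahr-/- and between 11.12 and 11.77 in samples labelled Ahrr-/-, and the genotypes overlap for each of the 10 genes in each comparison.

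Nfe2l2, which encodes NRF2, lies on chromosome 2 of GRCm38 from 75675513 to 75704663 (Entrez 18024). Its lowest, median and highest levels were 10.71, 11.36 and 11.45 in WT. In Ahr-/- they were 10.24, 10.79 and 11.19. In samples labelled Ahrr-/- they were 11.12, 11.38 and 11.77. The Ahr-/- samples M1, M2 and M3 were the lowest of the 18 samples, the males M2 and M3 were the low samples of WT, and the highest samples were the females F1 and F2 labelled Ahrr-/-. In normalized counts the mean was 2305 ± 498 (SD, n = 6) in WT, 1702 ± 395 in Ahr-/- and 2699 ± 498 in samples labelled Ahrr-/-.

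The Nfe2l2 level in Ahr-/- was below that in WT by a difference of -0.43 (Ahr-/- minus WT, SE 0.13, 95% confidence interval -0.70 to -0.15) and was below the WT median in 6 of 6 samples. It was not called (adjusted p = 0.0504 from limma), and the exact two-sided permutation test without sex gave p = 0.0498. The adjusted p ran from 0.0142 to 0.147 over 22 alternatives, and was 0.0404 without WT M3, the only library whose removal led to a call. Against Ahr-/-, Nfe2l2 rose by 0.66 in samples labelled Ahrr-/- (SE 0.12, interval 0.39 to 0.92, adjusted p = 0.00417 from limma, exact permutation p = 0.00649). All 6 of these samples lay above the Ahr-/- median, the ratio of the mean normalized counts was 1.59, and the ranges touched only between 11.12 and 11.19. The call held in all 22 alternatives, with adjusted p from 0.000618 to 0.0301. Samples labelled Ahrr-/- minus WT gave 0.23 (adjusted p = 0.683 from limma), with 4 of 6 samples above the WT median. In bulk RNA, fewer cells of a type and less RNA per cell cannot be told apart, for this gene and for those that follow.

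Keap1, whose protein holds NRF2 in check, had few counts, with a mean of 63.9 ± 15.3 normalized counts in WT (SD, n = 6), 66.1 ± 14.9 in Ahr-/- and 80.5 ± 38.1 in samples labelled Ahrr-/-. Its median level was 6.93 in WT, 7.01 in Ahr-/- and 7.07 in samples labelled Ahrr-/-, with the highest level, 7.69, in M1 of the last group. The difference was 0.03 for Ahr-/- minus WT (interval -0.25 to 0.31, adjusted p = 0.919 from limma). It was -0.04, 0.00 and -0.02 without WT F3, WT M1 or Ahr-/- F3, so its sign rests on single libraries, and at most 0.10, without WT F1. For samples labelled Ahrr-/- minus WT it was 0.16 (adjusted p = 0.786 from limma), and 0.04 without M1 and 0.10 without F3 labelled Ahrr-/-. This difference was 0.24 without WT F1 and at most 0.30 over its 21 alternatives.

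Promoters of the genes that were called between genotypes are printed because these genes share a direction, and that of Nqo1 because its difference was the largest of the pathway. The sequences are from RefSeq (GRCm38.p6), each 300 bases long, with 250 before and 50 after the start of a transcript, on the strand of the gene. Distances are from that start, which need not be the first base of the gene. Capitals mark the antioxidant response element core TGACNNNGC on either strand, which can overlap the motif of AP-1. Nfe2l2 is at chr2:75704614-75704913 on the minus strand, Txn1 at chr4:57956362-57956661 on the minus strand, Prdx1 at chr4:116685349-116685648 on the plus strand, and Nqo1 at chr8:107403156-107403455 on the minus strand.
Nfe2l2: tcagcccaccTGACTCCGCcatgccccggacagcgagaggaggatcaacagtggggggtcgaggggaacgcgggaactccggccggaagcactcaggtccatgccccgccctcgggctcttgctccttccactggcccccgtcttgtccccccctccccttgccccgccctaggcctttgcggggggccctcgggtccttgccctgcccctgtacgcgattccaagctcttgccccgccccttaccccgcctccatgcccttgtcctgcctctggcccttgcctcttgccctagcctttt
Txn1: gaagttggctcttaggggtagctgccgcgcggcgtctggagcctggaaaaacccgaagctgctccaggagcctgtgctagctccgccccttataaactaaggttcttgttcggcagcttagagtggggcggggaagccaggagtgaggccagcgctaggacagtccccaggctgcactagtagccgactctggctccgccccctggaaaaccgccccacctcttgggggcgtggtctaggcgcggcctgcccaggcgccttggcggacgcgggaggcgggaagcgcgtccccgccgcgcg
Prdx1: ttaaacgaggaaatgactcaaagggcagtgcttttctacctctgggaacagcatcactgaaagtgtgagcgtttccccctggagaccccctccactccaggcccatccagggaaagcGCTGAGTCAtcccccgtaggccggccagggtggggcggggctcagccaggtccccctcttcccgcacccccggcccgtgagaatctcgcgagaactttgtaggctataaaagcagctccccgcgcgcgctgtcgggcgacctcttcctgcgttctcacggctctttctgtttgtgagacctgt
Nqo1: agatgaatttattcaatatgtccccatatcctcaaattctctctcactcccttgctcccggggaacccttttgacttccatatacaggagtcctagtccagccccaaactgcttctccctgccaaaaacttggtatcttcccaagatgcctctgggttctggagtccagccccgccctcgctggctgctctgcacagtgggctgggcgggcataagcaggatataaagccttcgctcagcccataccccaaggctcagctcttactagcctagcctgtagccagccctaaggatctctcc

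The core lies 240 bases before the start in Nfe2l2 and 133 before it, on the other strand, in Prdx1. Of the 10 genes, 7 had a promoter in the table, with 9 promoters in all, and 5 of the 9 held the core, against 4071 of all 32851 promoters (12.4%). The others were those of Gclm (134 bases before the start), Txnrd1 (92 before, in 1 of its promoters) and Srxn1 (28 after). The AHR response element core TNGCGTG was in 0 of the 9 and in 1664 of all promoters (5.07%). A match describes letters in this window and is not a binding site, and a missing match says nothing of the factor. The 10 genes were chosen as genes of the NRF2 pathway, so the shares are a description and no test. Counted by gene, 5 of the 7 held the antioxidant response element core, against 3781 of 27025 genes.

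Hmox1 encodes haem oxygenase, which breaks down haem. Its lowest, median and highest levels were 5.85, 6.10 and 6.46 in WT. In Ahr-/- they were 5.90, 6.47 and 6.93. In samples labelled Ahrr-/- they were 5.99, 6.40 and 8.38. The groups overlapped, and the highest value belongs to F2 of the last group, 271 normalized counts against a WT mean of 20.4. The Ahr-/- minus WT difference of 0.31 was not called (SE 0.18, interval -0.06 to 0.69, adjusted p = 0.307 from limma), with 4 of 6 Ahr-/- samples above the WT median. It was 0.20 without Ahr-/- F3, and at these low counts 0.71 with log2(normalized count + 1) and 0.75 with voom. The difference of samples labelled Ahrr-/- minus WT was 0.55 (interval -0.08 to 1.18, adjusted p = 0.671 from limma), 0.23 without the library F2 labelled Ahrr-/-, 1.07 with log2(normalized count + 1) and 1.10 with voom. Samples labelled Ahrr-/- minus Ahr-/- gave 0.24 (adjusted p = 0.642 from limma), and -0.11 without the library F2 labelled Ahrr-/-, which decides its sign. It was 0.09 without Ahr-/- F1, 0.13 without Ahr-/- F2 and 0.39 without F1 labelled Ahrr-/-.

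Gclc and Gclm encode the catalytic and the modifier subunit of glutamate-cysteine ligase, which starts glutathione synthesis. Gclc had median levels of 8.30 in WT, 8.15 in Ahr-/- and 8.09 in samples labelled Ahrr-/-, within ranges that all lay between 7.76 and 8.60. Gclm lay between 7.34 and 8.04 in WT, between 7.37 and 7.80 in Ahr-/- and between 7.67 and 8.42 in samples labelled Ahrr-/-, where M1 and M3 were highest. Neither gene was called in any comparison. For Gclm, samples labelled Ahrr-/- minus Ahr-/- came to 0.34 (SE 0.13, adjusted p = 0.0847 from limma), with 5 of 6 samples above the Ahr-/- median. The Gclm difference of Ahr-/- minus WT was -0.03 (interval -0.29 to 0.23), and it was 0.06 without WT F2, 0.03 without Ahr-/- F2 and -0.10 without WT F3. The Gclc difference of Ahr-/- minus WT was -0.16 (interval -0.46 to 0.13), -0.25 without WT F3 and -0.09 without WT F1 or Ahr-/- F3. That of samples labelled Ahrr-/- minus Ahr-/- was 0.02, and between -0.05 and 0.00 without Ahr-/- F3, Ahr-/- M1, or the library F3 or M3 labelled Ahrr-/-. Gsr encodes glutathione reductase, which returns oxidized glutathione to its reduced form. Its median level was 13.42 in WT, 13.30 in Ahr-/- and 13.00 in samples labelled Ahrr-/-, where M3 was lowest at 12.58. The Gsr differences were -0.12 for Ahr-/- minus WT (adjusted p = 0.623 from limma) and -0.31 for samples labelled Ahrr-/- minus WT (adjusted p = 0.687 from limma). The former was -0.06 without WT M1 and -0.07 without WT F2.

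Txn1, on chromosome 4 from 57943373 to 57956411 (Entrez 22166), encodes thioredoxin, which reduces disulfides in other proteins. Its lowest, median and highest levels were 11.21, 11.53 and 12.38 in WT. In Ahr-/- they were 11.11, 11.20 and 11.44. In samples labelled Ahrr-/- they were 11.01, 12.14 and 13.36. The 4 highest samples were M1 (13.36), M3 (12.56) and F3 (12.28) labelled Ahrr-/- and WT F1 (12.38), while the Ahr-/- samples lay close together at the low end of both other groups. Prdx1, on the same chromosome from 116685599 to 116700000 (Entrez 18477), encodes a peroxiredoxin that breaks down peroxides and is reduced by thioredoxin. Its levels were 9.86, 10.22 and 11.17 in WT. In Ahr-/- they were 9.56, 10.16 and 10.30. In samples labelled Ahrr-/- they were 9.78, 10.97 and 12.36. The same 4 samples were highest as for Txn1, and all groups overlapped.

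Against Ahr-/-, Txn1 rose by 0.83 in samples labelled Ahrr-/- (SE 0.27, interval 0.26 to 1.40, adjusted p = 0.0484 from limma, exact permutation p = 0.0433), with 5 of 6 samples above the Ahr-/- median and a ratio of mean normalized counts of 2.08. Prdx1 rose by 0.95 in the same comparison (SE 0.29, interval 0.32 to 1.57, adjusted p = 0.0432 from limma, exact permutation p = 0.0476), with 4 of 6 samples above the Ahr-/- median and a ratio of 2.35. Both calls sit near the threshold. Each was lost without any of Ahr-/- F1, F2, M1, M2 and M3 or the libraries F3, M1 and M3 labelled Ahrr-/-, with adjusted p from 0.0732 to 0.111 for Txn1 and from 0.0743 to 0.095 for Prdx1. The differences without these libraries were 0.61 to 0.88 for Txn1 and 0.71 to 0.95 for Prdx1, each lowest without M1 labelled Ahrr-/-. The call was lost in 12 of 22 alternatives for Txn1, among them voom on the counts (adjusted p = 0.0526 from limma voom), and in 10 of 22 for Prdx1. Over these alternatives the adjusted p ran from 0.0128 to 0.158 for Txn1 and from 0.0139 to 0.155 for Prdx1. Ahr-/- minus WT gave -0.42 for Txn1 (SE 0.17, adjusted p = 0.136 from limma), below the WT median in 6 of 6 samples, and the adjusted p was 0.0472 without WT F2. For Prdx1 it gave -0.41 (SE 0.20, adjusted p = 0.235 from limma), below the WT median in 5 of 6. Without WT F1 these differences were -0.27 for Txn1 and -0.22 for Prdx1. Samples labelled Ahrr-/- minus WT gave 0.41 for Txn1 and 0.54 for Prdx1, neither of them called (adjusted p = 0.721 and 0.683 from limma). Without M1 labelled Ahrr-/- they were 0.19 and 0.29, and without WT F1 they were 0.62 and 0.77.

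Txn1 and Prdx1 varied together over the 18 samples (Pearson r = 0.98, Spearman rho = 0.89). Both permutation p were 1e-05, the smallest that 100000 permutations can give, and 0.00045 when adjusted over the 45 pairs of the 10 genes. The permutations of pairs ignored genotype and sex, so their p do not separate differences between groups from variation shared within groups. Without the 2 samples farthest from the Txn1 median r was 0.95, and within genotypes it was 0.98 in WT, 0.72 in Ahr-/- and 0.99 in samples labelled Ahrr-/-. Nfe2l2 did not share this pattern over the 18 samples, with r of 0.17 to Txn1 (permutation p = 0.51, adjusted 0.66, rho = 0.02) and 0.12 to Prdx1 (permutation p = 0.65, adjusted 0.71, rho = -0.08). Within WT, Ahr-/- and the samples labelled Ahrr-/-, r of Nfe2l2 was -0.15, -0.58 and -0.65 to Txn1 and -0.24, -0.68 and -0.59 to Prdx1, below 0 in each genotype. Of the 45 pairs, 11 had an adjusted permutation p of r under 0.05, and 9 of these also of rho. In 8 r was above 0, among Keap1, Gclm, Srxn1, Txn1 and Prdx1, and in 3 below 0, those of Gsr with Keap1, Txn1 and Prdx1. Gclm had r of 0.68 to Txn1 and 0.73 to Prdx1. Without the 2 farthest samples these were 0.26 and 0.39, and within WT -0.33 and -0.18. For the others of the 8, r without the 2 farthest samples was between 0.61 and 0.95. Within WT, Ahr-/- and samples labelled Ahrr-/-, r of Srxn1 was 0.58, 0.11 and 0.51 to Txn1. To Prdx1 it was 0.59, 0.12 and 0.54. Keap1 gave 0.40, 0.59 and 0.98 to Txn1, 0.48, 0.98 and 0.98 to Prdx1 and 0.58, 0.79 and 0.96 to Gclm. In the same order r of Gsr was -0.13, -0.88 and -0.71 to Keap1 and -0.89, -0.16 and -0.76 to Txn1. To Prdx1 it was -0.84, -0.78 and -0.75.

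The samples high in Txn1 and Prdx1 were also high in epithelial markers. The sum over 10 epithelial genes, all in the table and with Krt19 the most abundant, was 18761 normalized counts in WT F1, 11433 in WT M3 and between 4591 and 7419 in the other WT samples. It lay between 3828 and 8393 in Ahr-/-. In samples labelled Ahrr-/- it was 5540 in F1, 6186 in F2, 20946 in F3, 25046 in M1, 12907 in M2 and 25199 in M3. The 4 samples with the highest sums were the 4 with the highest levels of Txn1, Prdx1 and Keap1, 3 of them were among the 4 highest for Gclc, Gclm and Srxn1, and none for Nfe2l2, Txnrd1 and Gsr. Of the 10 epithelial genes, 6 were called higher in samples labelled Ahrr-/- than in Ahr-/- (Epcam, Cdh1, Krt8, Krt18, Krt19 and Lgals4), beside 14.9% of all genes tested. For Ahr-/- against WT 0 of the 10 were called, beside 8.84% of all genes tested. For samples labelled Ahrr-/- against WT 0 were called, where only 0.0779% of all genes tested were. The median sum was 7334 in WT, 6615 in Ahr-/- and 16926 in samples labelled Ahrr-/-. The sort selects SiglecF+ cells, and the part of epithelial RNA in the Txn1 and Prdx1 differences was not tested. A sum of 9 macrophage genes, all in the table and led by Csf1r, had medians of 1126 in WT, 1338 in Ahr-/- and 1767 in samples labelled Ahrr-/-, and was highest, at 2009, in the library F2 labelled Ahrr-/- that was also highest in Hmox1. Csf1r alone did not follow this order, with medians of 569, 872 and 654. It was called higher and Cd68 lower in Ahr-/- than in WT, and Cd68 and C1qb were called higher in samples labelled Ahrr-/- than in Ahr-/-. The macrophage sum was 1860, 1723, 1811 and 1686 in F3, M1, M2 and M3 labelled Ahrr-/-. Their Hmox1 was 49.3, 15.1, 30.9 and 32.8 normalized counts, against 271 in F2 labelled Ahrr-/-. That F2 library was also highest in the sums of neutrophil genes (3922) and of genes of the response to dissociation (34901). The sort selects MHC-II- cells, the study gates macrophages as MHC-II+, and the part of macrophage RNA in the Hmox1 values was not tested.

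**Figure D2:**
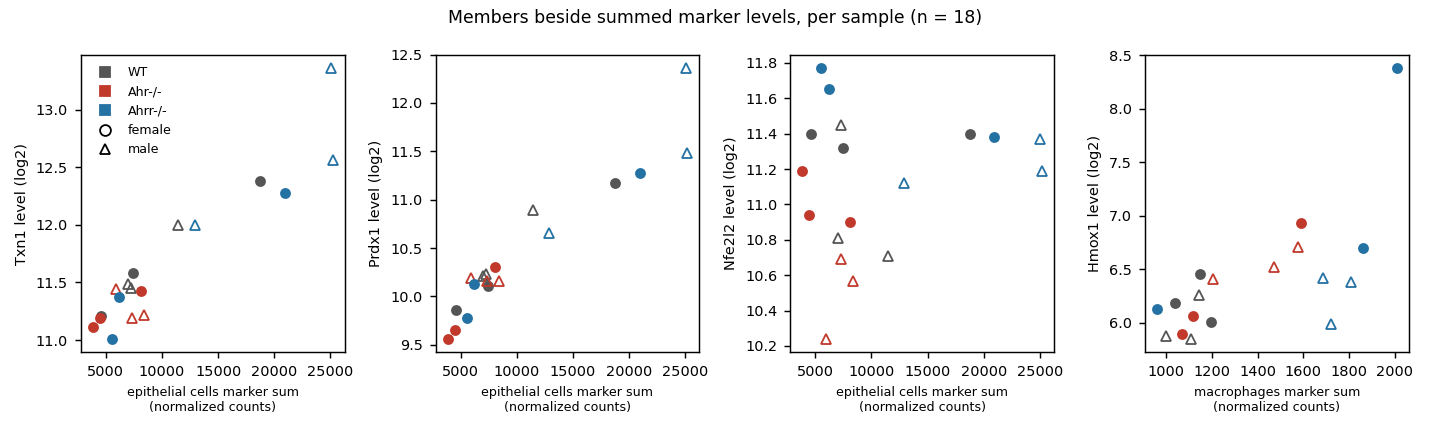
Level (variance-stabilized log2) of Txn1, Prdx1 and Nfe2l2 against the summed normalized counts of 10 epithelial marker genes, and of Hmox1 against those of 9 macrophage marker genes, 1 point per sample (n = 18). The sample M1 labelled Ahrr-/- has 25046 epithelial counts, a Txn1 level of 13.36 and a Prdx1 level of 12.36.

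Txnrd1 encodes thioredoxin reductase, which recharges thioredoxin with NADPH. Its lowest, median and highest levels were 9.74, 10.56 and 11.36 in WT. In Ahr-/- they were 10.03, 10.79 and 11.80. In samples labelled Ahrr-/- they were 10.28, 10.73 and 11.22. The highest values in each genotype were in females, and no comparison of genotypes called the gene. Ahr-/- minus WT came to 0.38 (SE 0.21, interval -0.06 to 0.81, adjusted p = 0.286 from limma), and samples labelled Ahrr-/- minus Ahr-/- came to -0.15 (adjusted p = 0.535 from limma). The latter was -0.25 without Ahr-/- M1, -0.23 without Ahr-/- F3 and -0.04 without Ahr-/- F2. Srxn1 encodes sulfiredoxin, which repairs overoxidized peroxiredoxins. Its median level was 7.68 in WT, 7.44 in Ahr-/- and 7.85 in samples labelled Ahrr-/-. Srxn1 in Ahr-/- lay below the WT median in 6 of 6 samples, with a difference of -0.22 that was not called (interval -0.48 to 0.04, adjusted p = 0.297 from limma). Samples labelled Ahrr-/- minus Ahr-/- gave 0.43 (SE 0.16, adjusted p = 0.0706 from limma), and the adjusted p was 0.0158 without the library F1 labelled Ahrr-/-.

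Across the list, 0 of the 10 genes were called for Ahr-/- against WT by limma, where 8.84% of all 11346 genes tested were called. At an unadjusted p under 0.05 there were 2 (Nfe2l2 and Txn1), beside 2638 of all 11346 genes tested. Limma voom on the counts also called 0 of the 10. The median difference of the 10 was -0.14, with 7 below 0, against -0.004 over all genes tested, and the differences ran from -0.43 to 0.38. With a minimum mean of 3 above the lowest value, with quantile normalization, with the replicate block or without WT M3 the count was 1, Nfe2l2, and without WT F2 it was 1, Txn1. For samples labelled Ahrr-/- against WT, 0 of the 10 were called by limma and 0 by voom, with 0 at an unadjusted p under 0.05. There 0.0779% of all 11546 genes tested were called, with 853 at an unadjusted p under 0.05. The median of the 10 was 0.23, with 8 above 0. For samples labelled Ahrr-/- against Ahr-/-, 3 of the 10 were called, all higher (Nfe2l2, Txn1 and Prdx1), where 14.9% of all 11474 genes tested were called. The median was 0.29, against -0.003 over all genes tested. The count was 1, Nfe2l2, without any of the 8 libraries named for Txn1 and Prdx1, that is Ahr-/- F1, F2, M1, M2 and M3 and F3, M1 and M3 labelled Ahrr-/-. In the same comparison the number of all genes called was between 818 and 1001 without any of these except M1 labelled Ahrr-/-, and 2574 without F1 labelled Ahrr-/-.

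**Figure D3:**
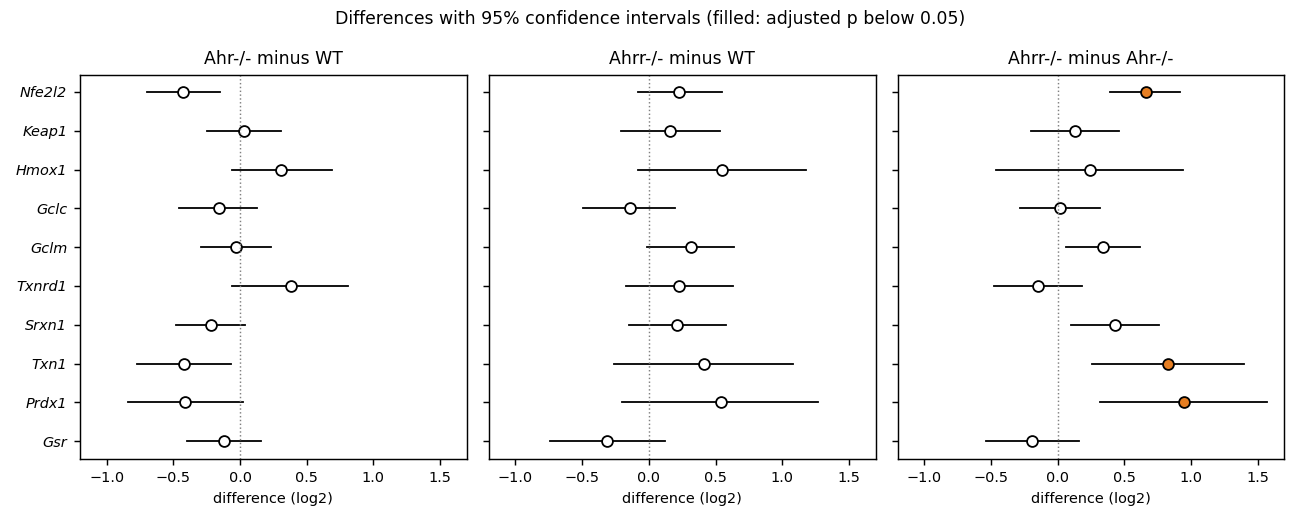
Difference of each of the 10 genes (log2) with its 95% confidence interval from limma, in the 3 comparisons of genotypes (6 against 6 samples), filled where the adjusted p is below 0.05. No gene is filled for Ahr-/- minus WT or for samples labelled Ahrr-/- minus WT, and Nfe2l2 (0.66), Txn1 (0.83) and Prdx1 (0.95) are filled for samples labelled Ahrr-/- minus Ahr-/-.

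Sex was tested over all 18 samples, with genotype in the model, as male minus female. Of the 10 genes, 2 were called, both lower in males, where 3.06% of all 11468 genes tested were called. Txnrd1 fell by 0.78 (SE 0.16, interval -1.10 to -0.45, adjusted p = 0.0104 from limma). Its female and male means were 10.82 and 10.21 in WT, 11.42 and 10.37 in Ahr-/-, and 11.09 and 10.41 in samples labelled Ahrr-/-. Within Ahr-/- and within the samples labelled Ahrr-/- all 3 females lay above all 3 males, and in WT the sexes overlapped. The call held in all 25 alternatives, with adjusted p from 0.00115 to 0.0296. Nfe2l2 fell by 0.42 (SE 0.11, interval -0.65 to -0.20, adjusted p = 0.0345 from limma), from means of 11.37 to 10.99 in WT, of 11.01 to 10.50 in Ahr-/- and of 11.60 to 11.22 in samples labelled Ahrr-/-. Its call was lost without any of 12 libraries, with adjusted p from 0.0566 to 0.0864, while the difference lay between -0.44 and -0.38. They are WT F2, M2 and M3, the Ahr-/- libraries F1, F2, M1, M2 and M3, and F1, F2, M2 and M3 labelled Ahrr-/-. The number of all genes called for sex was between 142 and 211 without any of these except WT M2 and M2 labelled Ahrr-/-, 733 without WT F1, 595 without WT M1 and 577 without F3 labelled Ahrr-/-. The other 8 genes were not called, with differences from -0.26 for Hmox1 to 0.50 for Prdx1. A genotype by sex interaction was called by limma for 0 of the 10 genes with either knockout, and for 0 of all genes tested (0%), with 533 and 544 genes at an unadjusted p under 0.05. By voom it was also called for 0 of the 10.

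Nqo1, on chromosome 8 from 107388225 to 107403205, encodes a quinone reductase and is not among the 10. Its median level was 8.38 in WT, 6.41 in Ahr-/- and 8.31 in samples labelled Ahrr-/-. The highest Ahr-/- sample, M2 at 6.92, lay below the lowest WT sample (8.06) and the lowest sample labelled Ahrr-/- (8.07). The mean normalized count was 254 in WT, 37 in Ahr-/- and 286 in samples labelled Ahrr-/-. In Ahr-/- against WT, Nqo1 fell by 1.82 (interval -2.08 to -1.56, adjusted p = 1.27e-07 from limma), and against Ahr-/- it rose by 1.93 in samples labelled Ahrr-/- (SE 0.15, adjusted p = 1.82e-06 from limma). With voom these differences were -2.82 and 2.93. On the variance-stabilized scale the largest difference from WT among the 10 genes in Ahr-/- was thus smaller, -0.43 for Nfe2l2. With voom Hmox1 gave 0.75, also smaller than the difference of Nqo1. No test compared the difference of Nqo1 with those of the 10 genes.

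A wider set of 108 genes of the pathway, in 7 lists by role, gave 92 that were tested for Ahr-/- against WT. Of these, 8 were called (8.7%), 5 higher and 3 lower, beside 8.84% of all genes tested, and the median difference was 0.00. In the regulators of NRF2 1 of 14 was called, Maff, a small MAF partner of NRF2, which fell by 0.52 (adjusted p = 0.0264 from limma). The Maff call was lost in 7 of 21 alternatives, without WT F3, Ahr-/- F1, F2 or M1 (adjusted p from 0.0586 to 0.076), with no minimum mean, with no sex covariate and with all 18 samples in the fit (adjusted p up to 0.106). In glutathione synthesis and use 2 of 30 were called, both higher, Gsta3, a glutathione transferase, by 1.09 (adjusted p = 0.000855 from limma) and Ggct, which takes part in breaking glutathione down, by 0.59 (adjusted p = 0.00451 from limma). In the thioredoxin and peroxiredoxin system 1 of 15 was called, the methionine sulfoxide reductase Msrb2, higher by 0.63 from low counts (mean 16.7 in WT and 45.6 in Ahr-/-). In haem and iron 2 of 12 were called, in opposite directions. The iron exporter gene Slc40a1 rose by 1.09 (adjusted p = 4.39e-05 from limma), and Fth1, the ferritin heavy chain that stores iron, fell by 0.75 (adjusted p = 0.00191 from limma). Nqo1 was the call among 11 quinone and xenobiotic enzymes, and G6pdx, higher by 0.42 (adjusted p = 0.011 from limma), that among 7 genes of NADPH supply. Of the superoxide dismutases and catalase 3 of 4 genes were tested (Sod1, Sod2 and Cat), and 0 were called by limma or voom. At an unadjusted p under 0.05 there were 0 of the 3, beside 2638 of all 11346 genes tested. The called genes of the wider set thus lay on both sides of 0 in Ahr-/-.

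For samples labelled Ahrr-/- against WT, 0 of 95 genes of the wider set were called by limma and 0 by voom. Of all 11546 genes tested 0.0779% were called by limma. At an unadjusted p under 0.05 there were 8 of the 95, beside 853 of all genes tested. The median difference of the wider set was 0.14. Against Ahr-/-, 16 of 98 were called (16.3%), 12 higher and 4 lower, beside 14.9% of all genes tested. The median was 0.13. The glutathione genes gave 6 of 35, among them Gpx2 (1.19), Mgst3 (1.03), Mgst2 (0.95), Gss (0.51) and Gstp2 (0.44) higher and Gsta3 (-1.26) lower. The quinone and xenobiotic enzymes gave 4 of 12, all higher, with Nqo1 (1.93), Aldh9a1 (0.74), Ptgr1 (0.66) and Ugt1a7c (0.66). Sizes at low counts depend on the scale, and with voom Ptgr1 gave 1.18 and Ugt1a7c 1.39, and with log2(normalized count + 1) Gstp2 gave 1.18 and Msrb2 -1.54. Haem and iron gave Fth1 (0.88) higher and Slc40a1 (-0.94) lower of 12, the thioredoxin and peroxiredoxin system Prdx5 (0.48) higher and Msrb2 (-0.64) lower of 15, the regulators Maff (0.67) higher of 14, and NADPH supply G6pdx (-0.45) lower of 7. Of Sod1, Sod2 and Cat 0 were called by limma or voom, with 1 at an unadjusted p under 0.05, beside 3760 of all 11474 genes tested. The calls of Nqo1, Gsta3, Msrb2, Fth1, Gpx2 and Slc40a1 held without each library in turn. Fth1, Gpx2 and Slc40a1 lost theirs with no minimum mean, and Fth1 also with no sex covariate, with adjusted p from limma up to 0.0591 for Fth1, 0.0522 for Gpx2 and 0.0599 for Slc40a1. The other 10 were each lost without at least 5 of the 12 libraries, with adjusted p up to 0.119. None of the 10 was lost without F1 labelled Ahrr-/-, and each of the other 11 libraries was among those that some call needed. The count was between 6 and 10 without Ahr-/- F1 (7), F2 (6), M1 (6), M2 (10) or M3 (7) or without F3 (7), M1 (8) or M3 (8) labelled Ahrr-/-. For 5 of the 12 genes called higher (Gpx2, Gss, Aldh9a1, Mgst3 and Ptgr1), the 4 highest samples were those with the highest epithelial sums, WT F1 and F3, M1 and M3 labelled Ahrr-/-, and for Gstp2, Mgst2 and Ugt1a7c 3 of the 4 were. Mgst3 had 620 normalized counts in WT F1 and 697, 1489 and 950 in these samples labelled Ahrr-/-, against at most 425 in any other sample. For the 4 called lower, and for Nqo1, Fth1, Prdx5 and Maff, at most 2 of the 4 were. The part of epithelial RNA in these differences was not tested. For sex, 5 of 95 genes of the wider set were called (5.26%), 2 higher in males (Idh1 and Tfrc) and 3 lower (Maff, Slc3a2 and Slc11a1), beside 3.06% of all genes tested.

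**Figure D4:**
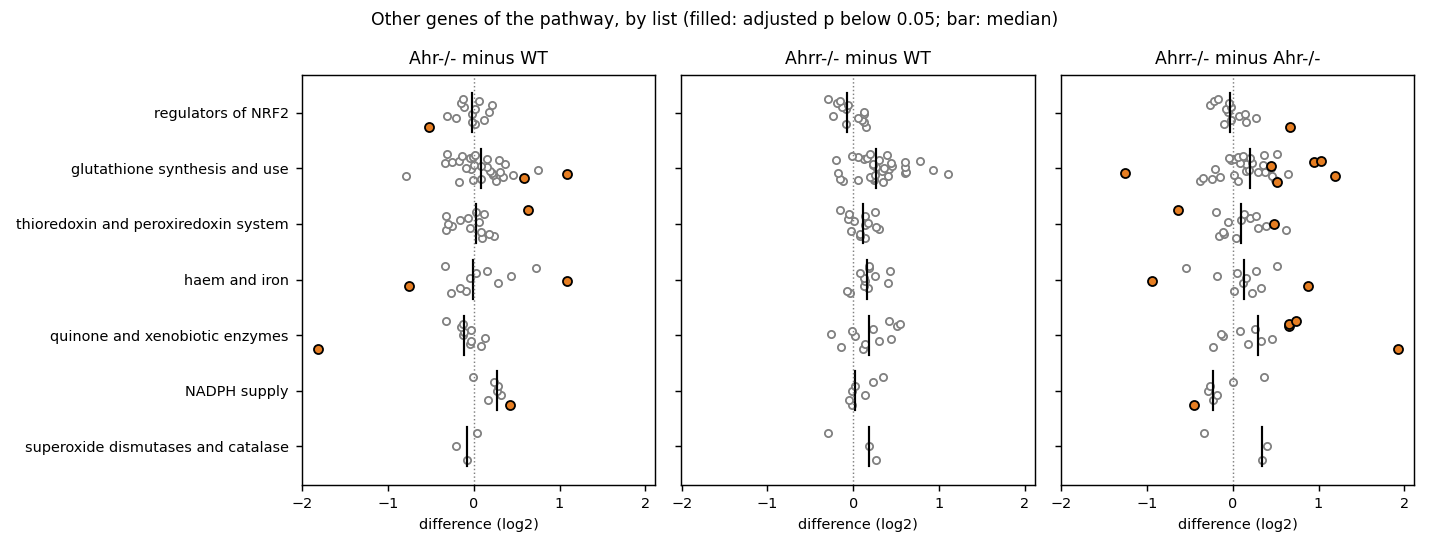
Difference (log2) of each tested gene of the 7 pathway lists in the 3 comparisons of genotypes, with a bar at the median of each list, filled where the adjusted p from limma is below 0.05. For Ahr-/- minus WT the filled points run from -1.82 (Nqo1) to 1.09 (Gsta3 and Slc40a1), and none is filled for samples labelled Ahrr-/- minus WT.

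The 5 genes whose levels over the 18 samples were most like those of Nfe2l2, of 11467 genes ranked by Pearson r, were Csnk1a1 (r = 0.91, rho = 0.92), Atf3 (0.90 and 0.90), Optn (0.90 and 0.87), Stx12 (0.90 and 0.94) and Cdkn1a (0.89 and 0.90). They were chosen by this measure, so the values are a description with no test. None of the other 9 genes of the list came near them. Txnrd1 ranked highest of the 9, at 1013 (r = 0.44), then Srxn1 at 1628, Gsr at 2838, Txn1 at 3508, Hmox1 at 4067, Prdx1 at 4189 and Gclm at 4586, and Keap1 (7985, r = -0.16) and Gclc (8064, r = -0.17) ranked lowest. Over the 18 samples the permutation p of r between Nfe2l2 and Txnrd1 was 0.066 (adjusted over the 45 pairs, 0.16) and that of rho (0.50) was 0.035 (adjusted, 0.1), and without the 2 samples farthest from the median r was 0.50. Within genotypes, with the sexes together, r was 0.86 in WT, 0.73 in Ahr-/- and 0.88 in samples labelled Ahrr-/-. Nqo1 ranked 283 (r = 0.64).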

How the data were processed

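The deposited table holds 1 column for each of the 18 samples, with variance-stabilized expression on a log2 scale, which the authors computed from gene counts after scaling each sample by its size factor, and 0 columns were left without a sample. The notes of the submitters name STAR 2.5.2, RSEM 1.3.0, DESeq2 and R 4.0.3, while the methods name nf-core/rnaseq on GRCm38. When the transformation was inverted, 100% of the values were whole counts (tolerance 0.0001, largest deviation 3.7e-08). Of the 22708 genes, 22685 were matched to RefSeq by Entrez ID, which gave positions and promoters.

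Each pair of genotypes (6 against 6 samples) was fitted with limma 3.58.1 in R 4.3.3 on the deposited values, by lmFit and eBayes with a mean-variance trend and sex as covariate. Genes entered when their mean was at least 1 above the lowest value. Interaction models added genotype by sex, and sex was fitted over all 18 samples with genotype. P-values were adjusted by Benjamini-Hochberg over all genes tested. Single genes also had an exact two-sided permutation test of the difference of means. Pairs of genes had 100000 permutations over all 18 samples, without genotype or sex. Intervals are at 95%. The fit was tested on simulated data. Alternatives were no minimum mean, a minimum of 3, centring on the median, quantile normalization, log2(normalized count + 1), limma voom, all 18 samples fitted together, no sex covariate, the replicate number as a block and leaving out each sample. Tables and permutations were run in Python 3.11.15 with pandas 2.3.3 and numpy 2.4.6, ranks were taken with scipy 1.17.1, and figures were drawn with matplotlib 3.10.9.

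The 10 genes, the 7 pathway lists and the 10 marker lists were chosen with earlier results of these data known. Named are the 10 genes, the called genes of each pathway list (up to 5 in each direction per comparison), Nqo1, the 5 genes most like Nfe2l2, and the most abundant and the defining genes of a marker list. Other marker genes are named where they were called, and in the neutrophil list also where they were not, which was chosen after their values were seen. Sod1, Sod2 and Cat are named though not called.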

Additional observations from a re-analysis of the deposited data

Results flagged for a closer look

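In 30 groups of 6 samples, the 10 genes in 3 genotypes, the gap of the highest or lowest sample to its neighbour was compared with the range of the group, and 2 samples stood apart beyond the 95% critical value of Dixon's test. Chance alone marks about 1 in 20 groups. Hmox1 in the sample F2 labelled Ahrr-/- was 8.38 (271 normalized counts), with a gap of 0.701 of the range. Gclm in Ahr-/- F2 was 7.37 (107 normalized counts), below the other samples of its genotype, with a gap of 0.734 of the range.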

How the results depend on the processing

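Results were recomputed with 1 choice changed at a time. The omission of both libraries with the most genes counted (WT F3 and Ahr-/- F3), the alternatives for sex, those for the wider set in samples labelled Ahrr-/- against Ahr-/-, and those for the number of all genes called were chosen after seeing the data. Where no reason is given, the cause was not tested. Of 648 recomputed differences of the 10 genes between genotypes, 605 kept their direction and their side of the threshold.

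Of the 10 genes, the number called for Ahr-/- against WT went from 0 to 1 with a minimum mean of 3, with quantile normalization and with the replicate block, and was 0 to 1 with each sample left out. For samples labelled Ahrr-/- against Ahr-/- it went from 3 to 1 with no minimum mean and with no sex covariate, and was 1 to 4 with each sample left out. For sex it went from 2 to 1 with no minimum mean, with quantile normalization and without both libraries, and was 1 to 2 with each sample left out. For samples labelled Ahrr-/- against WT it was 0 under all 22 alternatives, and for the interaction 0 with no minimum mean and with voom. The replicate block assumes that samples with the same number pair across genotypes, and their correlations, from -0.592 to 0.473, did not show it. With this block the difference of Nfe2l2 for Ahr-/- against WT was -0.43 with an adjusted p of 0.0231, in a range from 0.0142 to 0.147 over its alternatives.

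In the wider set, the 8 called for Ahr-/- against WT became 4 with a minimum mean of 3, which tests fewer genes, and 7 to 10 with each sample left out. The 16 called for samples labelled Ahrr-/- against Ahr-/- became 3 with no minimum mean, 9 with a minimum of 3 and 5 with no sex covariate, and 6 to 24 with each sample left out.

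Among all genes, the 1003 called for Ahr-/- against WT became 623 with no minimum mean, 553 with all 18 samples in the fit and 586 without both libraries, and 623 (without Ahr-/- F1) to 1124 with each sample left out. The 9 called for samples labelled Ahrr-/- against WT became 4 with no minimum mean, centring on the median, log2(normalized count + 1), voom or the replicate block, 5 with a minimum of 3 or quantile normalization, and 14 with all 18 samples, and 4 to 25 with each sample left out, 25 without F1 labelled Ahrr-/- and 4 or 5 without WT F1, F2, M2 or M3 or without F2, F3, M2 or M3 labelled Ahrr-/-. The 1708 called for samples labelled Ahrr-/- against Ahr-/- became 713 with no minimum mean, 828 with a minimum of 3 and 994 with no sex covariate, and 818 to 2574 with each sample left out. The 351 called for sex became 163 with no minimum mean, and 142 to 733 with each sample left out.

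Differences near 0 changed sign. Keap1 for Ahr-/- against WT (0.03) was -0.08 without both libraries, and -0.04 to 0.10 with each sample left out. Gclm for Ahr-/- against WT (-0.03) was 0.01 with quantile normalization, and -0.10 to 0.06 with each sample left out. Gclc for samples labelled Ahrr-/- against Ahr-/- (0.02) was -0.04 with centring on the median, -0.02 with quantile normalization and -0.05 without both libraries, and -0.05 to 0.09 with each sample left out. Hmox1 in the same comparison (0.24) was -0.11 to 0.39, and Nqo1 for samples labelled Ahrr-/- against WT (0.11) was -0.01 to 0.20, with each sample left out.

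Depth limits Hmox1 and Keap1, which had means under 100 normalized counts in each genotype.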

Other observations

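Summed normalized counts of the other marker lists had the following medians in WT, in Ahr-/- and in samples labelled Ahrr-/-. The 8 neutrophil genes, led by S100a9, had 312, 334 and 1465, and S100a8 and S100a9 were called higher in samples labelled Ahrr-/- than in either other genotype. The other tested genes were not called between genotypes, Ngp with medians of 21, 7 and 10 and Ltf with 12, 18 and 16, and the medians of Ly6g, Mpo, Camp and Elane were 0. The 5 B and plasma cell genes in the table, led by Jchain, had 545, 284 and 3895, and Jchain was called higher in samples labelled Ahrr-/- than in Ahr-/-. The 8 pancreatic acinar genes, led by Ctrb1, had 901, 12 and 25, and Prss2 and Ctrb1 were called lower in Ahr-/- than in WT. The T cell genes had 36, 40 and 80, the mast cell genes 84, 105 and 182, and the red cell genes 35, 51 and 35. The 10 genes of the response to dissociation, led by Fos, had 17091, 14969 and 21021, and were highest, at 34901, in the library F2 labelled Ahrr-/- that was also highest in Hmox1. Atf3, a gene of that list, was among the 5 genes most like Nfe2l2. It had medians of 737, 208 and 983, was called lower in Ahr-/- than in WT and higher in samples labelled Ahrr-/- than in Ahr-/-, and was the 1 gene of the 10 called in these comparisons. The part of these lists in the values of the NRF2 pathway genes was not tested.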
